A study of Homo sapiens with 2 samples.

Results

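Human chromosome 14 was followed through 2280 transcript clusters, the gene-level units of the Affymetrix Human Transcriptome Array 2.0, out of 67528 clusters in the deposited table. The members are all clusters whose identifier places them on chromosome 14, so no measured value entered the choice of a cluster. The chromosome itself was picked out with the same arrays in view, because its genes had earlier been seen to be lower, and its overall shift is therefore a description and not independent evidence. Of the clusters, 879 carry 1 gene symbol and stand for 864 genes, 23 carry several symbols, and 1378 carry none. The arrays are 2: 1 of a FaDu line labelled as cetuximab resistant and 1 of FaDu labelled as parental. FaDu is a widely used culture model of human head and neck squamous carcinoma. Cetuximab is an antibody against the epidermal growth factor receptor. The labels speak of cell lines in the plural for each array and do not say how resistance was obtained, at which dose, whether clones were isolated or RNA was pooled, or whether the drug was present at harvest. Neither line has a second array, so replicate error is unknown and nothing was tested, and every difference below, always the resistant minus the parental log2 value, describes these 2 arrays.

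Chromosome 14 is acrocentric, with its protein-coding genes on the long arm. T cell receptor alpha and delta segments lie toward the centromere, the imprinted DLK1-DIO3 domain with its microRNA and small nucleolar RNA clusters lies far out on the long arm, and the immunoglobulin heavy chain locus ends it. In between lie genes for proteasome subunits, DNA repair, secretion and transcription that most dividing cells use, and epithelial genes such as PAX9 and TGM1. Each transcript cluster summarises many probes along one transcribed locus, and unnamed clusters are loci to which the annotation gives no symbol.

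The promoters of 6 genes are printed here because these genes mark the extremes described below: IFI27 and FOS with the largest negative differences, TRIP11 and CPSF2 from the stretch of lowest values, DYNC1H1 from the stretch of higher values, and AJUBA with the largest positive difference. Each runs 5' to 3' on the gene's strand from 250 bases before to 50 bases after the first listed start, credited to RefSeq on the build GRCh38.p14. The places are chr14:94110486-94110785 on the plus strand for IFI27, chr14:75278578-75278877 on the plus strand for FOS, chr14:92040010-92040309 on the minus strand for TRIP11, chr14:92121719-92122018 on the plus strand for CPSF2, chr14:101964323-101964622 on the plus strand for DYNC1H1 and chr14:22982502-22982801 on the minus strand for AJUBA. Capitals mark matches, on either strand, to any of 6 motifs: the interferon-stimulated response element core (GAAA, any 2 bases, GAAA), the cyclic AMP response element TGACGTCA, the TATA box TATAAA, the CCAAT box CCAAT, the GC box GGGCGG and an ETS site CCGGAAG.
IFI27: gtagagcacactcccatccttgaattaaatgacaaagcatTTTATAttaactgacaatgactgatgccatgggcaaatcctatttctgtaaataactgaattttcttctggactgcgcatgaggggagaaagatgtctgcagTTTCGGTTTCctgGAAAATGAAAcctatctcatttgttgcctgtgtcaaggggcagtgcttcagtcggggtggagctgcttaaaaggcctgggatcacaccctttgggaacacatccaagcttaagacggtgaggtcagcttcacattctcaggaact
FOS: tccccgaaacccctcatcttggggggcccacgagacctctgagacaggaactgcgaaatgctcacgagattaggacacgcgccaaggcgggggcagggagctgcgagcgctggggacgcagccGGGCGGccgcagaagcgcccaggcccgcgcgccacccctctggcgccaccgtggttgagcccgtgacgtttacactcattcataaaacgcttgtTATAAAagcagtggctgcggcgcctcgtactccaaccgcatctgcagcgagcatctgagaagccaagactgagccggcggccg
TRIP11: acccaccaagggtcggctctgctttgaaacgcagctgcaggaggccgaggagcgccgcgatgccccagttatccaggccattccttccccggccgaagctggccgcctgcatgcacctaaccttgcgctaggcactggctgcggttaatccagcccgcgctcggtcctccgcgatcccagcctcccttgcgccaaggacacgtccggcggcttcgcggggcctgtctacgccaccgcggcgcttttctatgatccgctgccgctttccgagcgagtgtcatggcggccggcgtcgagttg
CPSF2: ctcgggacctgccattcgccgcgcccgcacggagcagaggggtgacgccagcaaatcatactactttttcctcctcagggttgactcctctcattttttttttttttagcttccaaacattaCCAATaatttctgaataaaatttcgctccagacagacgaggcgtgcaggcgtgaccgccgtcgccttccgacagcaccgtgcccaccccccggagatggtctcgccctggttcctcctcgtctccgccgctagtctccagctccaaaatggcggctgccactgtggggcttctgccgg
DYNC1H1: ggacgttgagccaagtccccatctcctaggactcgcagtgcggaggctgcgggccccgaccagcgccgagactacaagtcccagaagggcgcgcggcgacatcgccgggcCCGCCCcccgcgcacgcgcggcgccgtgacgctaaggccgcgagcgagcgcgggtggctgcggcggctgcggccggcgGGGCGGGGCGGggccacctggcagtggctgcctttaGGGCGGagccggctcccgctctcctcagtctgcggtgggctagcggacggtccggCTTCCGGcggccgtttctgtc
AJUBA: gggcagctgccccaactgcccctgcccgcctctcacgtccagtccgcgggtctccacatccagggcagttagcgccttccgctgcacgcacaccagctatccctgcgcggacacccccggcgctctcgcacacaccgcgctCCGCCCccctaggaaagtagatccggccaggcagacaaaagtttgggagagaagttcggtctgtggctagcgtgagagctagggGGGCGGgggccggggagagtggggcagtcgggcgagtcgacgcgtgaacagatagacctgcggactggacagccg
IFI27 holds 2 matches to the interferon-stimulated core and 1 TATA box, FOS 1 TATA box and 1 GC box, CPSF2 1 CCAAT box, DYNC1H1 4 GC boxes, of which a neighbouring pair overlap by 1 base, and 1 ETS site, and AJUBA 2 GC boxes. TRIP11 holds none of the 6 in this window. Over all 27305 promoters of the table, 3.65% hold the interferon-stimulated core, 1.98% the cyclic AMP element, 12% the TATA box, 35.7% the CCAAT box, 44.6% the GC box and 10.7% the ETS site. A match is a string of letters and was not shown to be a used site.

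Genes of chromosome 14 were lower on the resistant array in most of the measured range. Counting was limited to genes brighter than 5.98 on at least 1 array, a level that divides the 22465 named genes of the table evenly by their brighter value, which kept 384 genes of chromosome 14, 327 of them protein coding. Their median difference was -0.91 log2 units, 307 lay below 0 and 71 above 0. A fold of 2 or more below the parental array was reached by 181 genes, or 47.1%, against 14.1% of the 11224 counted genes of the table, and above it by 20, or 5.21%, against 16.0%. Counts past a fold rest on the deposited difference, and with values below background raised to it they were again 181 and 20. At 4-fold the counts were 77 lower and 7 higher, and at 8-fold 28 lower and 2 higher. At or below -2 lay 20.1% of these genes, against 3.27% of counted genes on other chromosomes, and at or below -3, 7.29% against 1.25%. At or below 2 lay 98.2% against 94.5%, and at or below 3, 99.5% against 97.8%. Within 0.05 of the 2-fold limit lay 15 genes, from ABCD4 at -1.05 and OXA1L at -1.01 just past it to NGDN at -0.98 and IFI27L2 at -0.95 just short of it, and MARK3 at 0.99 on the other side. In bulk RNA, fewer cells that express a gene and less RNA of it per cell cannot be told apart.

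On the other chromosomes, the 10840 counted genes had a median of 0.03, with 12.9% lower and 16.3% higher by that measure. Chromosome by chromosome, their share of lower genes ran from 3.51% to 23.5%, so chromosome 14 at 47.1% lay outside the range of the other 22, and their medians ran from -0.26 to 0.61. Chromosome 18 had the highest of those medians, 0.61 over 173 genes, with 39.9% of them at least 2-fold higher, and chromosome 9 had -0.10 over 477 genes, with 20.5% at least 2-fold lower.

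**Figure D1:**
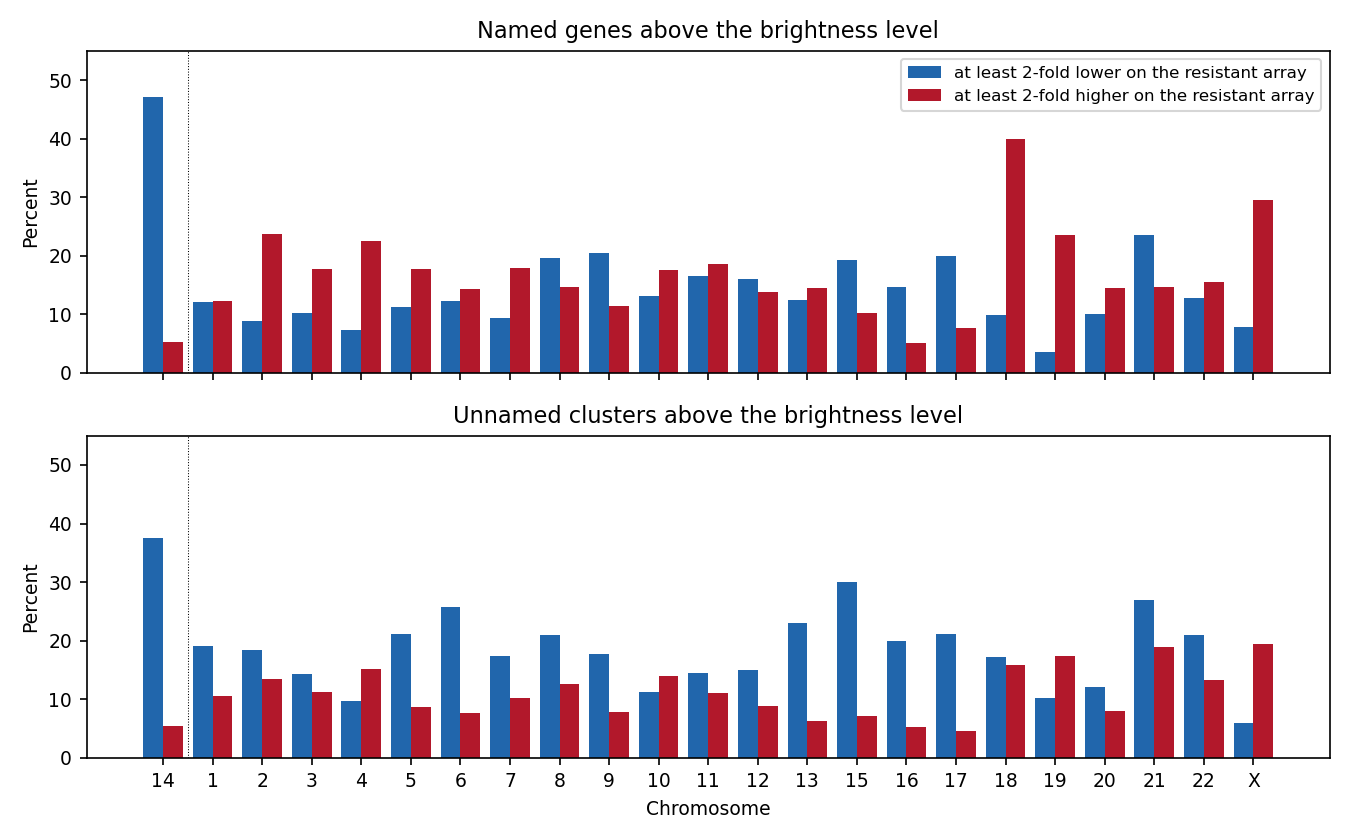
Percent of clusters at least 2-fold lower (blue) or higher (red) on the resistant array, by chromosome, for named genes (top) and unnamed clusters (bottom) above the brightness level, with chromosome 14 at the left. The blue bar of chromosome 14 reaches 47.1% of named genes and 37.5% of unnamed clusters, and the other chromosomes stay at or under 23.5% and 30%.

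The shift was larger for brighter genes. The higher value that sets the ranges is itself part of the difference, and background limits how far a dim gene can fall. Counted genes of chromosome 14 whose higher value lay between 5.98 and 7 had a median of -0.26, those up to 8 -0.60, those up to 10 -0.94 and the 158 genes above 10 -1.35, of which 62.7% were at least 2-fold lower. Genes of the other chromosomes had medians of 0.00, 0.01, 0.02 and 0.07 in the same 4 ranges. The 480 genes of chromosome 14 at or below 5.98 had a median of -0.04. Of all 864 genes, 383 lay at or below background on both arrays, where background is the 95th percentile of 364 olfactory receptor genes (5.03 on the resistant and 5.09 on the parental array).

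Along the chromosome the lower values were spread over nearly the whole long arm, with a deep trough near its far end and a short stretch of higher values after it. RefSeq gave a place to 359 of the 384 counted genes. Medians over windows of 25 adjacent genes lay below 0 in 311 of 335 windows and above 0 in 20. In 182 windows the median was at or below -1, and in 41 at or below -2. Counts of named genes past 2-fold in windows, blocks and stretches are to be read against 14.1% lower and 16.0% higher over the table. Over the chromosome these shares were 47.1% and 5.21%. The lowest window ran from SNW1 to CPSF2 at a median of -3.05, with 21 of 25 genes at least 2-fold lower. The highest ran from SNORD113-7 to KLC1 at 0.83, where 10 of 25 genes were higher past 2-fold and 0 lower, but the highest median was -0.09 with windows of 51 genes and 0.01 with only genes above the 75th percentile of brightness. Of 9676 such windows on other chromosomes, the lowest had -2.27, on chromosome 9, and the highest 2.17. Differences of adjacent genes had a Pearson correlation of 0.37 over 358 pairs, which share both arrays and are not independent, against 0.12 to 0.45 on the other 22 chromosomes, of which 2 lay above 0.37.

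**Figure D2:**
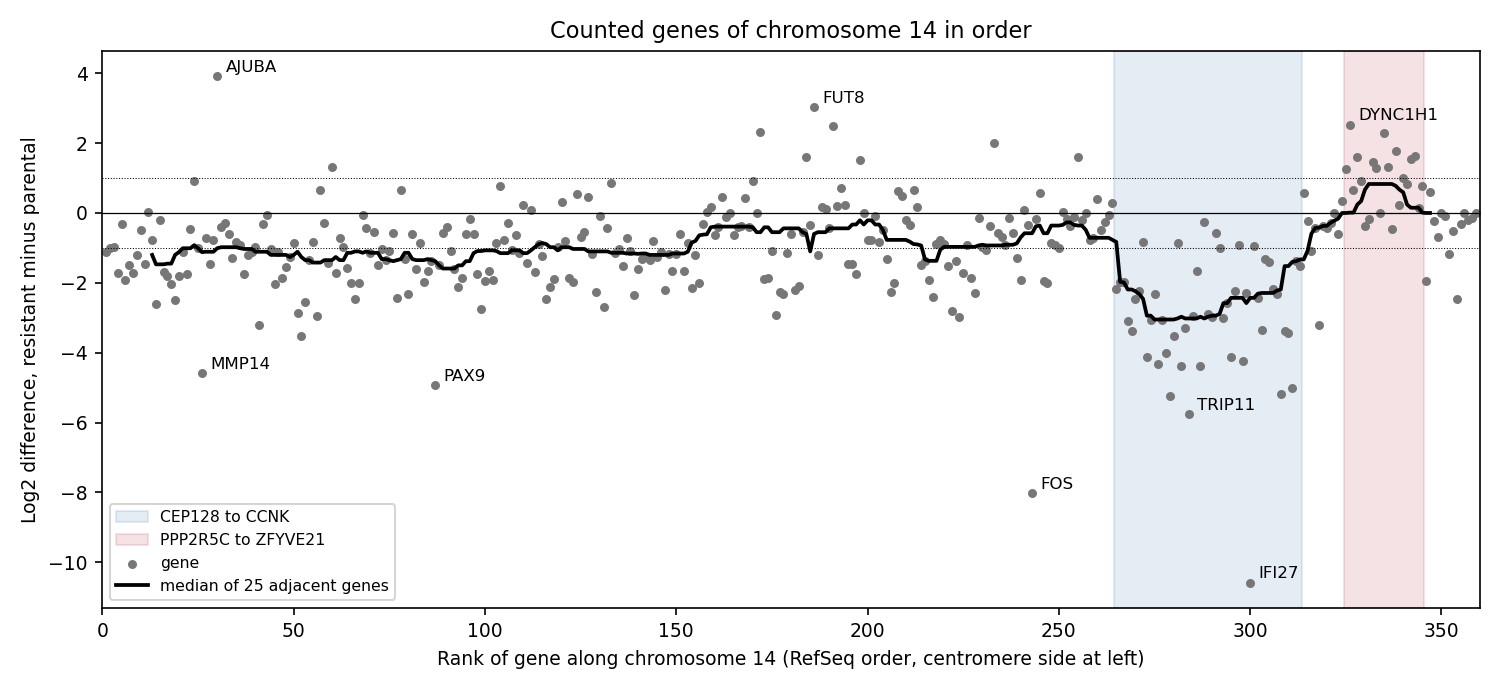
Log2 difference, resistant minus parental, of 359 counted genes (points) against their rank along chromosome 14, centromere side at the left, with the median of 25 adjacent genes (line) and dotted lines at 2-fold. The line lies below 0 over most of the chromosome, sinks to -3.05 in the blue stretch from CEP128 to CCNK and reaches 0.83 in the red stretch from PPP2R5C to ZFYVE21.

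In successive blocks of 25 genes from the centromere side, the first 6, from POTEM to AP5M1, had medians from -1.5 to -0.98 and held between 12 and 18 genes at least 2-fold lower each. The block from NAA30 to SGPP1 was shallower, at -0.39 with 7 lower, and the block from SYNE2 to DCAF5, at -0.55, held 10 lower and 4 higher. The blocks from EXD2 to ZNF410, FAM161B to ANGEL1 and IRF2BPL to EFCAB11 had medians of -0.90, -0.91 and -0.71. The block from TDP1 to IFI27 had -3.02 with 21 lower and 0 higher, and the one from IFI27L2 to PPP2R5C -1.33 with 14 lower. The next, from DYNC1H1 to AKT1, stood at 0.78 with 9 higher and 1 lower, and the last 9 genes, from CEP170B to TMEM121, at -0.20. The longest runs of adjacent counted genes all below 0 were 49 genes from CEP128 to CCNK, 26 from C14orf93 to LTB4R and 25 from SRP54 to FANCM. The longest run above 0 was 8 genes, from EIF5 to ZFYVE21.

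The run from CEP128 to CCNK was taken as a stretch of its own after its values were seen. Its 49 counted genes had a median of -2.89, 43 of them lower past 2-fold and 0 higher, and ranged from -10.58 (IFI27) to -0.25 (RIN3). With no brightness filter the median of the same span was -0.83. By the choice of the run all lie below 0, so that sign is no result. Of the 28 genes of the chromosome that were at least 8-fold lower, 22 lie in it. The 264 counted genes before it had a median of -0.98, with 130 at least 2-fold lower and 9 higher. These counts too are to be read against 14.1% and 16.0% over the table and 47.1% and 5.21% over the chromosome. Not past 2-fold in the stretch were PTPN21 at -0.83, CCDC88C at -0.86, RIN3 at -0.25, ITPK1 at -0.56, OTUB2 at -0.92 and IFI27L2 at -0.95. The 25 genes with a parental value of 10 or more had a median of -3.39 and the 24 dimmer ones -2.27. The difference correlated with the parental level at -0.63 over the 49 genes, and the parental level is itself part of the difference.

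IFI27, an interferon-induced gene, stood at 4.26, below background, on the resistant and 14.84 on the parental array, which makes it at least 895-fold lower. TRIP11, the gene of a Golgi protein that tethers vesicles, stood at 7.69 on the resistant and 13.45 on the parental array, 54.2-fold lower. TTC7B, part of the complex that brings a phosphatidylinositol 4-kinase to the plasma membrane, stood at 5.43 on the resistant and 10.68 on the parental array, 38.1-fold lower. The neighbours of these 3 genes were also lower, which the choice of the run fixed in advance.

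ATG2B, a lipid transfer protein of the forming autophagosome, stood at 7.14 on the resistant and 12.33 on the parental array, a difference of -5.19. VRK1, a nuclear serine/threonine kinase, stood at 9.25 on the resistant and 14.27 on the parental array, a difference of -5.02. Both lie near the far end of the stretch, beside GSKIP at 6.15 on the resistant and 9.54 on the parental array, and PAPOLA, the canonical poly(A) polymerase, at 12.92 on the resistant and 16.37 on the parental array. CPSF2, a subunit of the complex that cleaves mRNA precursors before polyadenylation, stood at 10.42 on the resistant and 14.81 on the parental array. PPP4R3A, a regulatory subunit of protein phosphatase 4, stood at 9.78 on the resistant and 14.17 on the parental array. Both were 21.0-fold lower, and both remained far above background on the resistant array.

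TDP1, which repairs topoisomerase I adducts on DNA, was 20.1-fold lower, at 6.85 on the resistant and 11.18 on the parental array. DDX24, a DEAD-box helicase, was 18.9-fold lower, at 10.41 on the resistant and 14.65 on the parental array. UBR7, of the UBR family of ubiquitin ligases, was 17.5-fold lower, TTC8, a subunit of the BBSome of cilia, 17.4-fold, and NRDE2, a nuclear RNA surveillance factor, 16.1-fold. The first genes of the stretch were less far apart: CEP128, a centriole protein, stood at 8.53 on the resistant and 10.72 on the parental array, and GTF2A1, a subunit of the general factor TFIIA, at 9.61 on the resistant and 11.58 on the parental array. Adjacent to CEP128 on the centromere side, ADCK1 stood at 7.02 on the resistant and 6.73 on the parental array and SNW1 at 12.05 on the resistant and 12.12 on the parental array, so the step from near 0 to -2.19 falls between neighbouring counted genes. The run was chosen to begin after a counted gene not below 0, so the sign of ADCK1 was fixed in advance. Of the other genes in the lowest window, TC2N had a difference of -3.29, STON2 -3.10, ATXN3, the ataxin 3 deubiquitinase gene, -2.94, SNORA79, a small nucleolar RNA gene, -1.99, and NDUFB1, a subunit of respiratory complex I, -1.67.

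**Figure D3:**
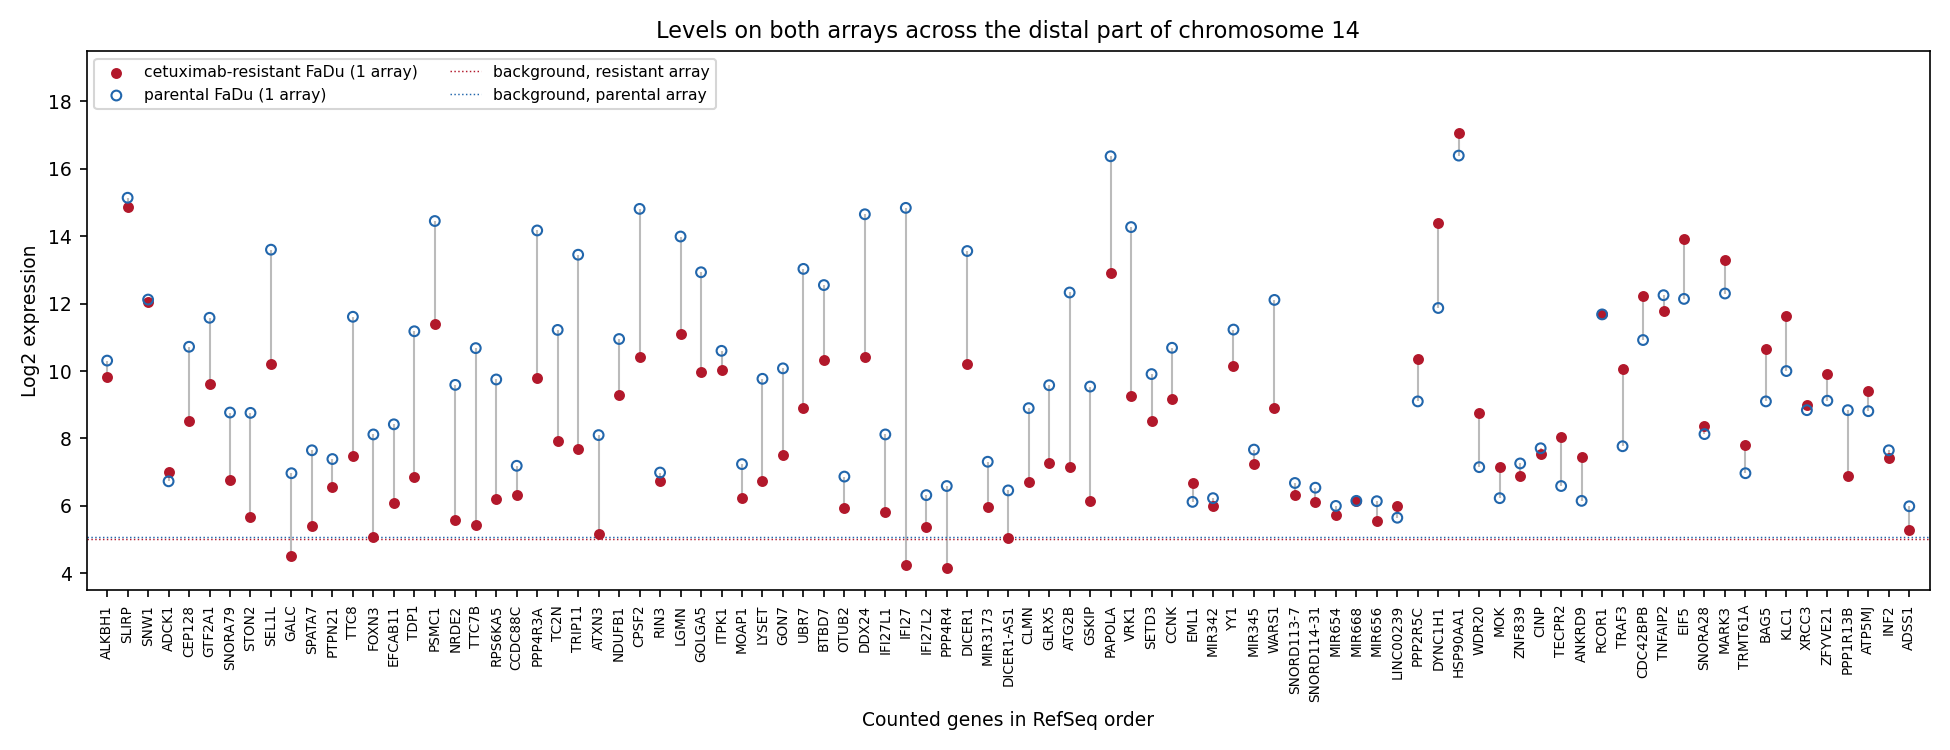
Log2 expression on the resistant array (red, filled) and the parental array (blue, open) of the counted genes in RefSeq order across the far end of chromosome 14, each pair joined by a line, with the background levels of both arrays dotted near the bottom. From CEP128 to CCNK every red point lies below its blue point, and from PPP2R5C to ZFYVE21 the red point lies above in 18 of 21 genes.

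RefSeq promoters were matched for 42 of the 49 genes, and 2 of them (4.76%) held the interferon-stimulated core, against 8 of 239 (3.35%) for the counted genes outside both far stretches. GC boxes occurred in 73.8% of promoters in the stretch and 68.6% of those outside, ETS sites in 14.3% in the stretch and 21.8% outside, and CCAAT boxes in 38.1% in the stretch and 39.7% outside. The TATA box occurred in 4.76% of promoters in the stretch and 4.18% of those outside, and the cyclic AMP element in 4.76% in the stretch and 3.35% outside. No difference between these shares was tested. These are descriptions of letters over genes that share a region.

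Outside the stretch, 6 other genes were at least 8-fold lower. FOS encodes a subunit of the AP-1 transcription factor and belongs to the immediate early genes. It stood at 6.23 on the resistant and 14.24 on the parental array, 258-fold lower. The counted genes on either side of it, TMED10 and JDP2, had differences of -0.34 and -0.18. PAX9, a transcription factor gene of oral and oesophageal epithelium, stood at 6.21 on the resistant and 11.14 on the parental array, 30.5-fold lower. MMP14, a membrane-bound metalloproteinase that activates pro-MMP2, stood at 5.84 on the resistant and 10.42 on the parental array, 23.9-fold lower, and TGM1, the transglutaminase that crosslinks the cornified envelope, at 5.58 on the resistant and 9.11 on the parental array. AP1G2, an adaptor of vesicle coats, stood at 9.42 on the resistant and 12.64 on the parental array, and WARS1, the cytosolic tryptophanyl-tRNA synthetase, which interferon gamma induces, at 8.91 on the resistant and 12.11 on the parental array. These genes and those of the stretches beyond the largest differences and the list members were chosen for mention after their values were seen.

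Between the trough and the higher stretch lie 11 counted genes with a median of -0.37, of which WARS1 and YY1, a zinc finger transcription factor, were at least 2-fold lower. YY1 stood at 10.15 on the resistant and 11.23 on the parental array, while EML1, a microtubule-associated protein gene, stood at 6.68 on the resistant and 6.12 on the parental array. Of the others, 5 are small RNA genes of the imprinted domain. From DLK1 to DIO3 the table holds 98 named genes, of which 5 passed the brightness level, and their median was -0.03. The highest value of any was 6.31 on the resistant and 6.68 on the parental array, both of SNORD113-7. DLK1, a growth-inhibiting membrane protein expressed from the paternal copy, stood at 4.43 on the resistant and 4.51 on the parental array, and MEG3, a long noncoding RNA expressed from the maternal copy, at 4.01 on the resistant and 4.08 on the parental array. Both lie below background on each array, so no difference is read from the domain.

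From PPP2R5C to ZFYVE21 the direction turned. Of 21 counted genes, 10 were at least 2-fold higher on the resistant array and 0 lower, the median was 0.99, and 18 lay above 0. Of the 19 placed genes of the chromosome that were at least 2-fold higher, 10 lie here. This stretch too was chosen after its values were seen. Below 0 in it were ZNF839 at -0.37, CINP at -0.16 and TNFAIP2, a TNF-induced gene, at -0.46. The difference correlated with the parental level at -0.02 over the 21 genes. Between -0.59 and 0.34 in the highest window, before the stretch, lay SNORD114-31, MIR654, MIR668, MIR656 and LINC00239. Inside it, MOK, a protein kinase gene, had a difference of 0.93, TRMT61A, a subunit of a tRNA methyltransferase, 0.83, SNORA28 0.24 and RCOR1, a corepressor gene, 0.01.

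DYNC1H1, the heavy chain of cytoplasmic dynein, stood at 14.40 on the resistant and 11.87 on the parental array, 5.78-fold higher. TRAF3, an adaptor that restrains the noncanonical NF-kB pathway, stood at 10.05 on the resistant and 7.77 on the parental array, 4.86-fold higher. EIF5, the factor that triggers GTP hydrolysis by eIF2 at the start codon, stood at 13.92 on the resistant and 12.14 on the parental array, 3.43-fold higher. All 3 lay above background on both arrays.

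KLC1, a kinesin light chain, stood at 11.63 on the resistant and 10 on the parental array, 3.10-fold higher, WDR20, a cofactor of deubiquitinases, at 8.75 on the resistant and 7.15 on the parental array, and BAG5, a cochaperone of HSP70, at 10.64 on the resistant and 9.10 on the parental array. TECPR2, an autophagy-related gene, was 2.75-fold higher, CDC42BPB, a kinase downstream of CDC42, 2.48-fold, ANKRD9 2.46-fold and PPP2R5C, a regulatory subunit of protein phosphatase 2A, 2.39-fold. HSP90AA1, the stress-inducible cytosolic HSP90, stood at 17.06 on the resistant and 16.39 on the parental array, and MARK3, a kinase of microtubule-associated proteins, at 13.29 on the resistant and 12.30 on the parental array, 1.99-fold higher and just short of the limit. All 19 promoters matched in this stretch held a GC box, against 73.8% in the trough, 68.6% outside both and 44.6% of all promoters. Their median GC content was 72.3%, against 66.3% in the trough, 63.0% outside both and 58.3% over all promoters. The stretch was chosen by its values, and no difference between these shares was tested. After the stretch, 14 counted genes had a median of -0.21, with 3 at least 2-fold lower and 0 higher.

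Before the trough, 9 placed genes were at least 2-fold higher. AJUBA, a LIM-domain adaptor at cell junctions that inhibits LATS kinases, stood at 8.53 on the resistant and 4.61, below background, on the parental array, which makes it at least 10.9-fold higher. FUT8, which adds core fucose to N-glycans, stood at 10.01 on the resistant and 6.97 on the parental array, 8.22-fold higher. PLEK2, a pleckstrin of the actin cytoskeleton, stood at 11.49 on the resistant and 9.01 on the parental array, 5.58-fold higher. AJUBA lies in the block from MMP14 to NEDD8, where 13 of 25 genes were at least 2-fold lower and AJUBA was the 1 gene at least 2-fold higher. Its counted neighbours PRMT5 and C14orf93 had differences of -0.77 and -0.40.

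LTBP2, a matrix protein of the latent TGF-beta binding family, stood at 7.92 on the resistant and 5.91 on the parental array, 4.03-fold higher. POMT2, an O-mannosyltransferase of the endoplasmic reticulum, was 3.03-fold higher, RAB15, a small GTPase of endosomes, 3.01-fold, and KCNH5, a potassium channel gene at 6.87 on the resistant array and, below background, at 4.54 on the parental array, at least 3.44-fold. ZFP36L1, which promotes decay of mRNAs with AU-rich elements, stood at 11.93 on the resistant and 10.42 on the parental array, a difference of 1.51 in its brightest cluster, and 0.48 with the mean of all its clusters.

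The genes were also grouped by role in 15 lists, compiled with earlier results of these arrays known, and the counts are to be read against the 14.1% lower and 16.0% higher over the table and the 47.1% lower and 5.21% higher over the chromosome. No list was tested, and the members of several lists lie close together on the chromosome.

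Genes of DNA repair, replication and mitosis had the lowest median of the lists with more than 2 counted genes, -1.47 over 22 counted genes, of which 15 were at least 2-fold lower and 0 higher. Besides VRK1 and TDP1, TINF2, a subunit of the shelterin complex on telomeres, stood at 6.75 on the resistant and 9.62 on the parental array, and BAZ1A, a chromatin remodelling subunit, at 10.34 on the resistant and 12.77 on the parental array. Lysosome and autophagy genes had a median of -1.31, with 8 of 12 lower and 0 higher. LGMN, a lysosomal cysteine protease, stood at 11.10 on the resistant and 13.99 on the parental array. GALC, a lysosomal galactosidase, stood at 4.51, below background, on the resistant and 6.97 on the parental array, at least 3.83-fold lower, and AP4S1, of the AP-4 coat, stood at 5.28 on the resistant and 7.28 on the parental array.

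Of 7 counted proteasome genes, 4 were at least 2-fold lower and 0 higher, with a median of -1.17. PSMC1, an ATPase of the regulatory particle that lies inside the trough, stood at 11.39 on the resistant and 14.45 on the parental array. PSME1 and PSME2 encode the PA28 activator that interferon gamma induces, and lie toward the centromere. PSME1 stood at 11.05 on the resistant and 13.07 on the parental array, PSME2 at 10.56 on the resistant and 12.41 on the parental array, and PSMC6, another ATPase, was 2.25-fold lower. The core particle subunits PSMA6, PSMA3 and PSMB5 had differences of -0.86, -0.85 and -0.30.

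Of 7 counted genes of the interferon and NF-kB list, 4 were at least 2-fold lower and 1, TRAF3, higher, with a median of -1.16. Next to IFI27, IFI27L1 stood at 5.83 on the resistant and 8.12 on the parental array, and NFKBIA, the inhibitor that holds NF-kB in the cytoplasm, at 9.06 on the resistant and 11.03 on the parental array. Among 15 transcription factors, 7 were lower and 0 higher, with a median of -0.39. FOXN3, a forkhead factor in the trough, stood at 5.07 on the resistant and 8.12 on the parental array, and ZBTB25, a zinc finger factor, at 7.30 on the resistant and 9.62 on the parental array. HIF1A, the oxygen-regulated factor, was on the other side of 0, at 14.52 on the resistant and 13.61 on the parental array, and was chosen for mention after its value was seen.

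Secretory pathway and glycosylation genes numbered 26 counted, with 14 at least 2-fold lower, 2 higher (FUT8 and POMT2) and a median of -1.04. SEL1L, the adaptor of the ubiquitin ligase that clears misfolded proteins from the endoplasmic reticulum, stood at 10.21 on the resistant and 13.60 on the parental array, and GOLGA5, a golgin, at 9.96 on the resistant and 12.93 on the parental array. Both lie in the trough with TRIP11. Chaperone and translation genes, mRNA processing included, had 9 of 18 lower, 3 higher (EIF5, BAG5 and ZFP36L1) and a median of -0.94. DICER1, which cuts microRNA precursors, stood at 10.20 on the resistant and 13.56 on the parental array.

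Kinase and phosphatase signalling genes had 10 of 23 lower, 2 higher and a median of -0.83. RPS6KA5, the kinase MSK1 downstream of ERK and p38, stood at 6.22 on the resistant and 9.75 on the parental array, 11.6-fold lower. JAG2, a NOTCH ligand placed in this list and among the ligands, stood at 7.5 on the resistant and 9.96 on the parental array. AKT1, a kinase of growth and survival signalling, stood at 10.28 on both arrays. Mitochondrial and metabolic genes had 11 of 24 lower, 0 higher and a median of -0.83. GLRX5, of iron-sulphur cluster assembly, stood at 7.27 on the resistant and 9.58 on the parental array, MTHFD1, of one-carbon metabolism, at 13.28 on the resistant and 15.55 on the parental array, PYGL, a glycogen phosphorylase, at 10.61 on the resistant and 12.47 on the parental array, and COQ6, of ubiquinone synthesis, at 6.03 on the resistant and 7.88 on the parental array.

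The matrix, adhesion and cytoskeleton list went both ways, with 7 of 19 lower, 5 higher and a median of -0.56. Higher were AJUBA, DYNC1H1, PLEK2, LTBP2 and KLC1, and lower with MMP14 and TGM1 was SYNE2, the nesprin that ties the nucleus to actin, at 8.80 on the resistant and 11.72 on the parental array. Of 3 counted growth factors and ligands, JAG2 was lower, LTBP2 higher, and BMP4, a bone morphogenetic protein, stood at 6.39 on the resistant and 5.54 on the parental array. Of 2 counted G protein coupled receptors, LTB4R, the leukotriene B4 receptor, stood at 6.32 on the resistant and 9.26 on the parental array, and the orphan receptor GPR135 at 7.73 on the resistant and 7.69 on the parental array. None of the 10 measured clade A serpins, 8 measured ribonuclease A genes and 6 listed genes of the imprinted domain passed the brightness level. In all, 257 of 282 list entries were measured.

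**Figure D4:**
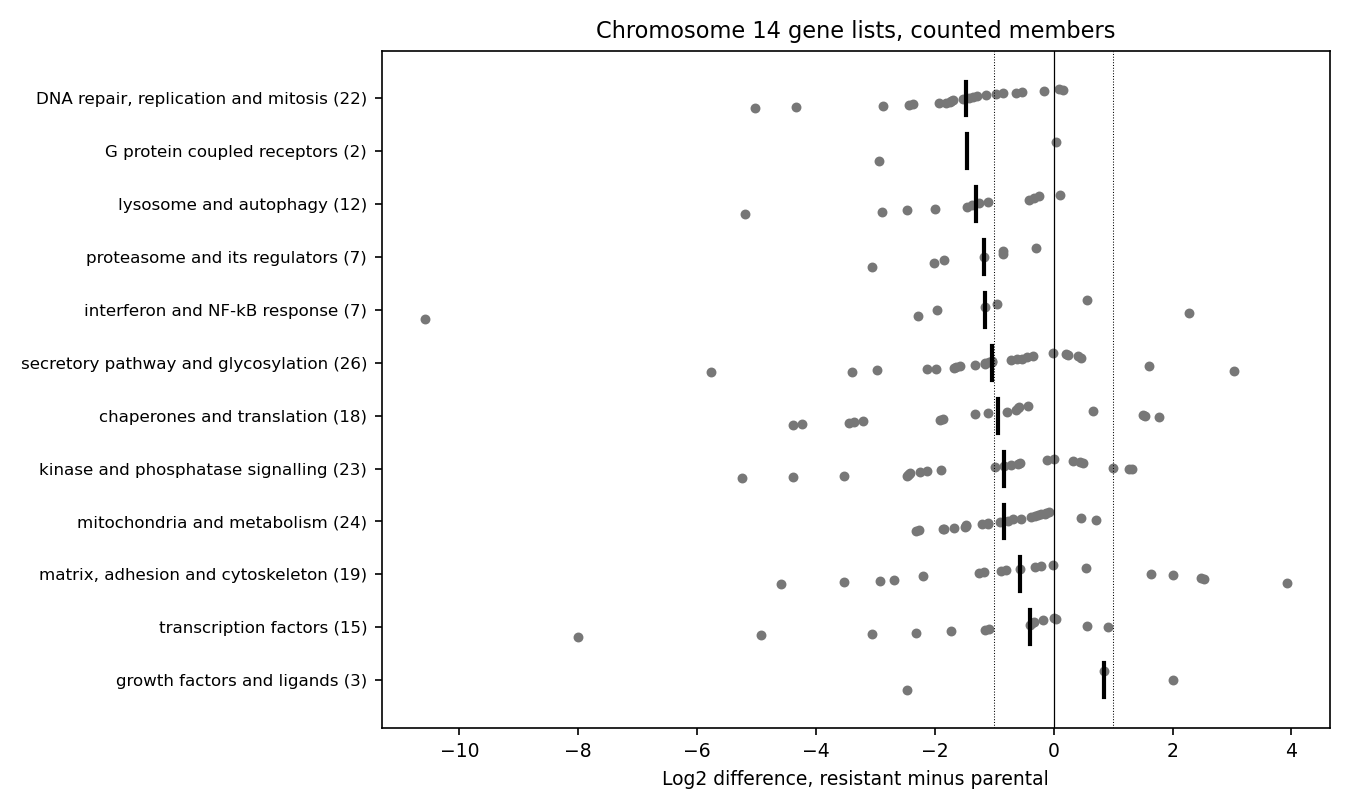
Log2 difference, resistant minus parental, of the counted genes of each role list (points), with the list median (thick bar), the number of counted genes in brackets and dotted lines at 2-fold. The list medians run from -1.47 for DNA repair, replication and mitosis to 0.85 for the 3 growth factors and ligands, and most points lie left of 0.

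Clusters without a symbol were shifted the same way, by less. Above the same brightness level were 355 of 1378, with a median of -0.62. Past 2-fold, 133 were lower, or 37.5%, against 18.8% of the 10636 unnamed clusters of the table above the level, and 19 were higher, or 5.35%, against 10.4%. With values below background raised to it, the counts on chromosome 14 were 132 and 17. The 10281 unnamed clusters of other chromosomes had a median of -0.24, whereas named genes there had 0.03, so unnamed clusters were lower than named ones off chromosome 14 and less low on it. By chromosome, the share of unnamed clusters at least 2-fold lower ran from 5.90% to 30% elsewhere. Without any brightness filter, all 2280 clusters had a median of -0.13, with 363 (15.9%) at least 2-fold lower against 6.40% of the table, and 45 (1.97%) higher against 4.94%.

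Named genes had the lower median in each of the 3 brighter ranges. In the range from 5.98 to 7 the unnamed clusters of chromosome 14 had a median of -0.34 and the named genes -0.26. Up to 8 the medians were -0.48 for unnamed and -0.60 for named, up to 10 -0.70 for unnamed and -0.94 for named, and above 10 -1.11 for unnamed and -1.35 for named. Of the 23 clusters with several symbols, 13 passed the level, with a median of -0.42, 3 at least 2-fold lower and 0 higher.

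**Figure D5:**
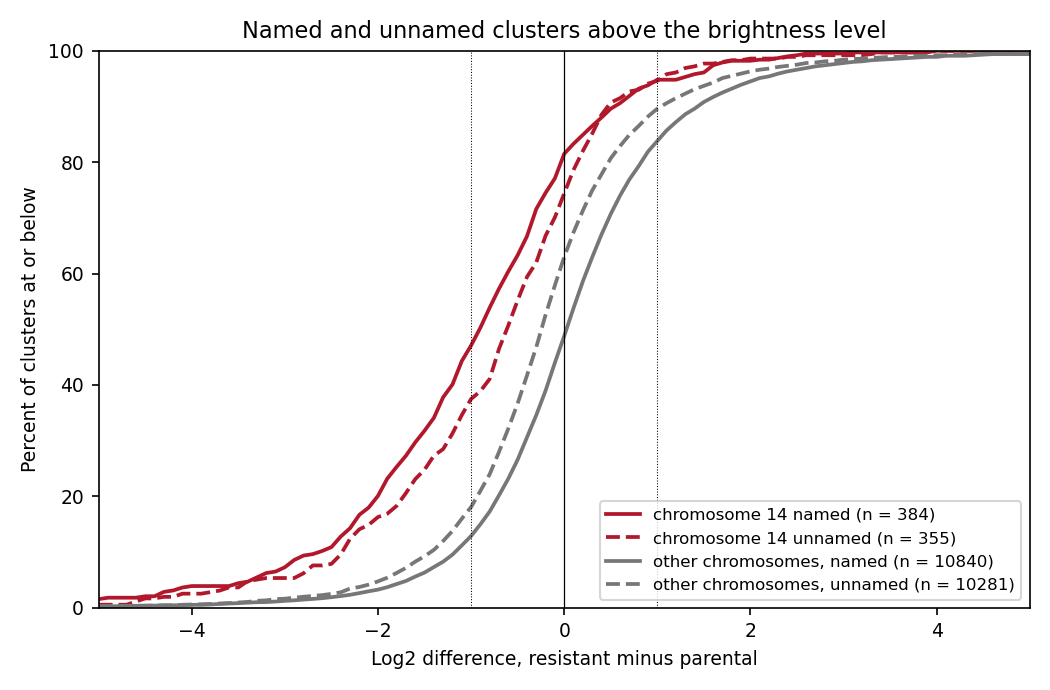
Cumulative percent of clusters above the brightness level at or below each log2 difference, resistant minus parental, for chromosome 14 (red) and the other chromosomes (grey), named (solid) and unnamed (dashed). At -1 the red lines stand at 47.1% for named and 37.5% for unnamed clusters, and the grey lines at 12.9% for named and 18.1% for unnamed.

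Cluster numbers follow the RefSeq order of named genes in 2 runs, below 847 and from 847 to 1567, where 3 adjacent pairs among 393 named clusters and 2 among 297 were out of order. Through their named neighbours, 748 unnamed clusters were placed in this way, 199 of them above the level, and 630 with other numbers were not placed. Placed before the trough were 137, with a median of -0.66 and 51 at least 2-fold lower. Placed within the trough were 34, with a median of -0.29, 7 lower and 1 higher. Counts of unnamed clusters here and below are to be read against 18.8% lower and 10.4% higher over those of the table. On chromosome 14 these shares were 37.5% and 5.35%. TC14000515, 1 of those lower, reached at least 1.94-fold when its resistant value was raised to background. The 49 named genes there were chosen as a run below 0 and the unnamed clusters were not, so their medians are not comparable.

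Single unnamed clusters of the trough differed among themselves. TC14000536, between SPATA7 and TTC8, stood at 9.86 on the resistant and 13.30 on the parental array, and TC14000554, between PSMC1 and LINC00642, at 11.14 on the resistant and 14.86 on the parental array, differences of -3.44 and -3.72. TC14000548, between FOXN3-AS2 and TDP1, stood at 17.26 on the resistant and 17.34 on the parental array, and TC14000567, between SNORA11B and CPSF2, at 16.60 on the resistant and 15.97 on the parental array. These last 2 differed by less than 1 log2 unit between the arrays. In the stretch of higher genes 12 unnamed clusters had a median of 0.06, with 1 lower and 1 higher. Over all 199 placed clusters, the difference correlated at 0.14 with the median of the nearest 25 named genes, where clusters share both arrays and neighbours.

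The largest differences among unnamed clusters were mostly of clusters with no place. TC14001821 stood at 4.45, below background, on the resistant and 15.48 on the parental array, at least 1400-fold lower. TC14002145 stood at 7.78 on the resistant and 13.06 on the parental array, TC14002125 at 7.72 on the resistant and 12.41 on the parental array, and TC14001783 at 4.71, below background, on the resistant and 9.26 on the parental array. TC14000253, between PNN and LRFN5, stood at 5.27 on the resistant and 9.92 on the parental array. In the other direction, TC14001735 stood at 12.75 on the resistant and 8.90 on the parental array, 14.4-fold higher, and TC14001309, between LTBP2 and AREL1, at 9.15 on the resistant and 5.82 on the parental array, 10.1-fold higher. LTBP2 itself was also higher. TC14001870 was 9.78-fold higher, TC14002165 at least 5.67-fold and TC14001876 5.06-fold. Of all counted unnamed clusters, the 156 without a place had a median of -0.82, with 73 lower and 12 higher.

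Families used mainly by lymphocytes and sensory neurons, and the small RNA genes, were mostly near background. Of 34 T cell receptor segments 3 passed the brightness level, of 52 immunoglobulin heavy chain genes 9, of 25 olfactory receptors 0, of 40 genes of the SNORD113 and SNORD114 clusters 2, and of 73 microRNA genes 8. Over all named members their medians ran from -0.07 to -0.03. The 5 named clusters with the highest mean over both arrays, an order that depends on the probes as well as the RNA, began with RN7SL1, the RNA of the signal recognition particle, whose many near-identical copies make its value uncertain, at 18.60 on the resistant and 18.90 on the parental array, and MIR548AI, whose symbol RefSeq places on another chromosome, at 16.62 on the resistant and 17.41 on the parental array. HSP90AA1 above, the RNA-binding mitochondrial protein gene SLIRP, at 14.87 on the resistant and 15.14 on the parental array, and TMED10, a cargo receptor of the early secretory pathway, at 14.61 on the resistant and 14.95 on the parental array, were the others.

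Markers of the labelled cell type were checked on both arrays. All 6 epithelial markers and all 4 measured of 7 squamous markers lay above background on both, among them EPCAM at 13.98 on the resistant and 12.61 on the parental array, but KRT14 stood at 5.17 on the resistant and 11.39 on the parental array, and KRT5 at 13.75 on the resistant and 17.25 on the parental array. Of the 4 measured leukocyte markers 3 lay at or below background on both arrays, CD68 alone lying above it, at 9.71 on the resistant and 11.19 on the parental array, and so did 3 of 4 fibroblast markers and VWF among the 3 endothelial ones. CDH5 stood at 6.98 on the resistant and 6.14 on the parental array and PECAM1 at 5.17 on the resistant and 3.74, below background, on the parental array. Their part in the differences of chromosome 14 was not tested.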

How the data were processed

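Total RNA of the sample labelled cetuximab-resistant FaDu and of that labelled parental FaDu was labelled with biotin and hybridised to 1 array each, per the labels' protocols. The deposited values are log2 expression per transcript cluster, with 2 decimals. Affymetrix Expression Console was used, per the submitters' processing notes, while its release, the algorithm and the build were likewise not given in the sources used here. As the scale, log2 was inferred from the deposited values, which ran from 1.95 to 19.63 on the resistant and from 2.00 to 19.78 on the parental array. Sorted values of the arrays lay 0.06 apart in the median and 0.28 at most, so the distributions were nearly alike. Whether a normalisation made them so is not given in the sources used here, and with one, any difference in total RNA would be lost. Probe intensities and scan data were not analysed here, and the number of arrays limits the precision.

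Symbols came from the platform annotation, and 758 of the 879 clusters of chromosome 14 with 1 symbol were updated through RefSeq (GRCh38.p14), which also gave gene order, promoters and no other coordinates. A gene with several clusters (15 on chromosome 14) was represented by the brightest. A gene or unnamed cluster counted if its higher value passed 5.98, and folds of 2 stand in for a test. Where 1 array lay at or below background, the fold was computed from the background level and given as "at least", and with both arrays there, none was computed. Olfactory receptor differences, which describe dim clusters and not replicate error, had an SD of 0.42. Members, lists and rules were chosen with earlier results of these data known. Named are the 15 largest differences each way among counted genes (segments and small RNAs left out), up to 4 genes per list, the genes of the lowest and highest windows, the 5 brightest, and 5 unnamed clusters each way. The alternatives were centring, loess, quantile normalisation, cluster averaging, and other filters, thresholds and windows. Python 3.11.15, numpy 2.4.6, pandas 2.3.3, scipy 1.17.1, statsmodels 0.14.6 and matplotlib 3.10.9 were used, and the scripts were tested on simulated data.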

Additional observations from a re-analysis of the deposited data

How the results depend on the processing

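Of 112 summary values recomputed under alternatives, 72 stayed within 0.1 log2 units (counts, within 1.5 times), 39 moved and 1 turned sign. Among those that stayed is the all-cluster median with no filter, which is the main value itself and could not change. The brightness filter accounted for most of the moves. With the 75th percentile filter the medians were -1.13 (all clusters), -1.25 (named) and -1.03 (unnamed), the lowest and highest windows -3.45 and 0.01, the neighbour correlation 0.48, the stretch from CEP128 to CCNK -3.39 and that from PPP2R5C to ZFYVE21 1.26, with 11 named genes higher, 63 unnamed clusters lower and 4 higher. With background as the filter the medians were -0.49, -0.63 and -0.42, and -2.32 in the first stretch. With no filter they were -0.15 (named) and -0.11 (unnamed), the windows -2.32 and 0.93, and the stretches -0.83 and 0.83. Loess gave -0.79 (named), -0.50 (unnamed), -2.92 and 0.97 (windows) and -2.79 and 1.09 (stretches), and quantile normalisation -0.81 (named) and 0.94 (highest window). At 4-fold, 77 named genes were lower and 7 higher, and 58 unnamed clusters lower and 6 higher, and at 1.5-fold 37 named and 30 unnamed were higher. At or below -2 lay 16.3% of the counted unnamed clusters of chromosome 14, against 4.75% of those on other chromosomes. At or below 2 lay 98.6% against 96.3%. Windows of 15 genes reached -3.53 and 1.26, and windows of 51 genes -2.89 and -0.09, so the highest window lay above 0 only for the narrower ones. Without small noncoding, segment and unnamed-locus symbols the second stretch stood at 1.12. Causes beyond the genes each setting keeps were not tested, and the alternatives on the stretches were chosen after seeing the data. Of 290 single-gene values over 58 genes, 83 moved by 0.1 or more, and centring, loess or quantile normalisation moved none by more than 0.14. A turn of sign was counted only for differences of at least 1 log2 unit, and 0 were found. These genes were mostly picked for large differences, so the absence of a turn is no evidence of stability. No paired analysis was possible because each group has 1 array. Dim clusters limit what can be seen: 1230 of the 2280 lay at or below background on both arrays.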
